A study of Mus musculus with 415 samples.

Results

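The regions described here are 810 accessible regions that crowd together on the mouse autosomes. They were selected on how many regions the authors had called nearby and on the measured share of cells with signal. They lie in 93 windows of 100 kb that each hold 8 or more regions of the deposited table, called dense bins below, with windows starting at whole multiples of 100 kb. Of the 849 regions in these windows, 810 were kept because they were narrower than 2000 bp and open in under 50% of the cells. They make up 3.57% of the 22681 autosomal regions and hold 3.04% of all signal. Of the 39 regions left out, 13 were too wide and 27 were open too often, 1 of them for both reasons. Because the deposited regions and the share of open cells come from the same cells, the crowding, the number of regions per bin and the upper limit on the share are descriptions and were not tested.

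The assay was ATAC-seq of single cells, a method that uses the enzyme Tn5 to cut accessible DNA and tag the fragments for sequencing. Each sample is 1 cell, and all form 1 group: R1 mouse embryonic stem cells, grown as embryoid bodies for 48 hours in hanging drops and then for 4 days with retinoic acid, which the labels give as 0.5 mM. All cells share this genotype, treatment and day, no untreated cells were analysed here, and no label names separate cultures, so the series is 1 sample and no p-value was computed. R1 is a single cell line, and embryoid bodies are aggregates in which several early lineages can form side by side. Cells were captured on a Fluidigm C1 chip. A cell had 756 to 12267 open regions, with a median of 3928, and 791 to 25069 fragments, so that a region without signal in a shallow cell is often a region that was not sampled. The dense-bin regions open in a single cell numbered 21 in the cell with fewest and 438 in the cell with most.

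Accessible regions are the promoters, enhancers and other stretches where nucleosomes are moved aside and proteins can reach DNA. They tend to gather where genes are packed closely, in families of related genes that lie side by side, and around developmental genes with many enhancers. Neighbouring elements may be opened in the same cells, either because a whole domain becomes accessible or because the same factors act on each. Reads that fit several copies of a repeated sequence can also place signal at many sites of a stretch at once. The deposited table pairs no region with a gene and no annotation or sequence on its genome build, mm9, was used here, so bins and regions are named by position as the table gives it, and no sequence is printed.

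Dense bins were rare and spread unevenly over the chromosomes. Of 11298 autosomal bins with any region, 0.823% were dense, where the median bin held 2 regions. Chromosome 7 held 13 dense bins, chromosome 11 held 12 and chromosome 2 held 11. Chromosomes 1, 14 and 18 held 1 dense bin each, and chromosome 16 held none. In relation to the regions of each chromosome, members ranged from 0.545% on chromosome 1 to 6.69% on chromosome 7, with chromosome 16 at 0%. In 11 places 2 dense bins lay next to each other, and no run was longer than 2. The threshold cuts through a smooth decline, with 85 bins of 7 regions just outside it and 50 bins of 8 regions just inside.

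Members were narrower than other regions and about as often open. Their median width was 643.5 bp (quartiles 417 and 961.5), against 750 bp (545 and 1010) in the 21165 autosomal regions outside dense bins that pass the same filters. The median member was open in 14.8% of the cells (quartiles 10.1% and 23.07%) and the median other region in 13.98% (9.64% and 22.9%). Among open values, the median member exceeded 1 fragment in 22.8% of cells and the median other region in 23.8%. The gap to the nearest region was 3753 bp at the median member and 22007 bp at the others, which follows from the rule.

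The fullest bins lay on chromosomes 11 and 8. The bin on chromosome 11 from 3000000 to 3099999 held 21 regions, of which 19 were members, open in 11.3% to 44.6% of the cells. Its least open member, from 3066565 to 3066750, had signal in 47 cells (11.3%, exact 95% interval 8.44% to 14.8%), and its most open one, from 3042038 to 3043799, in 44.6% of the cells (39.7% to 49.5%). All intervals on shares cover the counting of cells only. The bin on chromosome 8 from 19900000 to 19999999 also held 21 regions and 19 members, from 31 open cells (7.47%, 5.13% to 10.4%) at 19944696 to 19944941 up to 25.5% of the cells (21.4% to 30.02%) at 19982093 to 19983452. Close to it, the bin on chromosome 8 from 19700000 to 19799999 held 11 members, open in 7.95% to 24.3% of the cells.

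Next in number came bins on chromosomes 2, 13, 6 and 3. The bin on chromosome 2 from 74500000 to 74599999 held 15 members that were all rather rarely open, in 33 cells (7.95%) at 74549826 to 74550394 up to 64 cells (15.4%, 12.1% to 19.3%) at 74587447 to 74588298. On chromosome 13, the bin from 23600000 to 23699999 held 14 members in 8.92% to 29.4% of the cells. On chromosome 6, the bin from 52100000 to 52199999 held 12 members in 8.19% of the cells and more, led by the region from 52153412 to 52154999 with 31.3% (26.9% to 36.03%). On chromosome 3, the bin from 89000000 to 89099999 held 12 members in 7.47% to 26.3% of the cells. The others among the 10 fullest bins held 11 members each. They lay on chromosome 5 from 23900000 to 23999999 (7.71% to 39.8% of the cells), chromosome 10 from 79700000 to 79799999 (7.47% to 44.6%) and chromosome 11 from 96100000 to 96199999 (7.71% to 29.2%). Ties were taken in order of chromosome and start, which left 2 bins with as many regions and members, on chromosomes 15 and 17, outside the 10. Within a bin the members thus differed widely in how many cells had them open, except on chromosome 2, where the most open member had under 2 times the share of the least open.

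Whether the members of a bin are open in the same cells was measured for all 3339 pairs of members within bins. For each region and cell the probability of being open was fitted from the region's and the cell's overall rates, and the residuals of 2 regions were correlated over the cells. Pairs elsewhere were 35735 pairs under 100 kb apart among regions outside dense bins, averaged with the members' mix of distances and of expected overlaps. Members had a mean correlation of 0.0399 and pairs elsewhere 0.0214. The difference of 0.0185 rests on 3 bins. By chromosome the difference was taken with the members' mix of distances alone. On the 18 chromosomes with members its SD was 0.0269, and it was above 0 on 9 of them, with 0.0910 on chromosome 8 and 0.0611 on chromosome 11. Elsewhere it lay between -0.0156 on chromosome 5 and 0.00683 on chromosome 15.

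Without the 3 bins of chromosomes 8 and 11 described first, which were set apart after their values were seen, co-opening in the remaining 90 bins differed from that of pairs elsewhere by less than the spread over chromosomes. Their 2942 pairs had a mean correlation of 0.0197, where pairs elsewhere in the same classes had 0.0212. The difference of -0.00152 was smaller than the SD of 0.00681 over chromosomes. By chromosome, with the mix of distances alone, it was above 0 on 8 of 18. This leaves out high bins among the members alone. When the 9 sparser bins with a mean correlation above 0.1 were left out of the pairs elsewhere too, those had 0.0209 and the difference was -0.00121. Counted as cells, pairs of these bins were open together in 1.07 times the number expected from depth, and pairs elsewhere in 1.07 times as well. With distance, their correlation was 0.0239 ± 0.0300 (SD over chromosomes) under 2 kb and 0.0274 ± 0.0238 from there to 10 kb. It was 0.0192 ± 0.00989 for pairs 10 to 50 kb apart and 0.0153 ± 0.0103 beyond 50 kb. Pairs elsewhere had 0.0416 ± 0.0170, 0.0303 ± 0.00700, 0.0204 ± 0.00229 and 0.0152 ± 0.00156. In each class the sets differed by less than the spread over chromosomes of the members. This SD is no error of the mean, so it does not show that the sets are equal. Under 2 kb the members of these bins had the lower mean, over only 70 pairs.

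**Figure D1:**
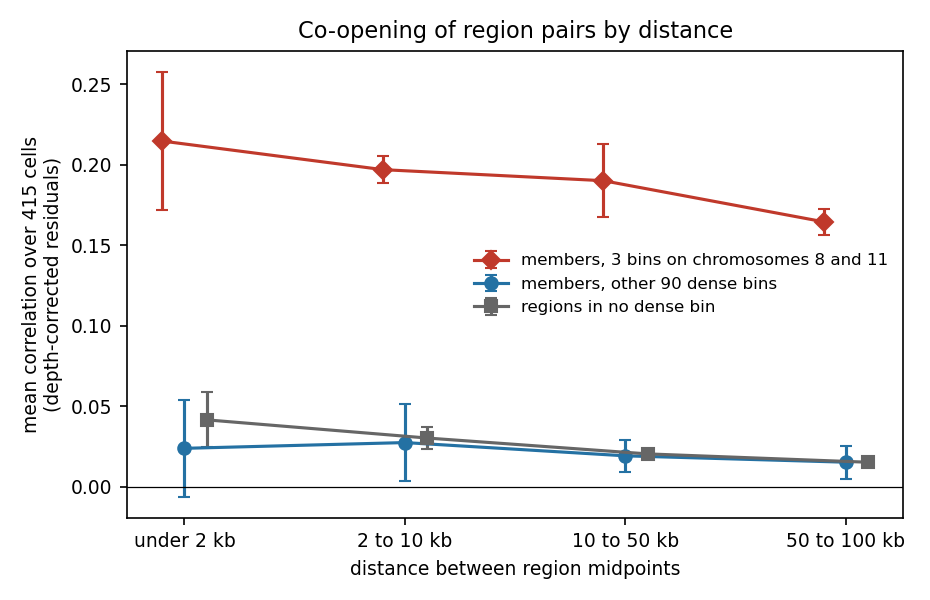
Mean correlation of depth-corrected residuals over all cells (vertical axis) against the distance between region midpoints in 4 classes (horizontal axis), for members of 3 bins on chromosomes 8 and 11 (red), members of the other 90 dense bins (blue) and regions in no dense bin (grey). Bars are SDs over chromosomes, 2 chromosomes for the red points and 16 to 19 for the others. The red points lie between 0.165 and 0.215, while the bars of blue and grey overlap in every class.

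Co-opening was similar in bins of up to 10 regions and, apart from the 3 bins, in fuller ones. At the members' mix of distances, the mean correlation within a bin was 0.0215 in bins of 2 to 3 regions, 0.0227 in bins of 4 to 5, 0.0200 in bins of 6 to 7 and 0.0184 in bins of 7 alone. Bins of 8 regions had 0.0185 and bins of 9 to 10 had 0.0219. In the 14 bins of 11 or more it was 0.0800, and 0.0191 in the 11 of them that remain without the 3 bins, which were set apart for their high values. Of 1280 bins with at least 6 pairs, 12 had a mean above 0.1, and 3 of those were dense. The highest of these 12, at 0.231, held only 4 regions and lay on chromosome 8 from 19600000. The highest of the other dense bins reached 0.0545. As pairs share cells and regions, these are descriptions.

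**Figure D2:**
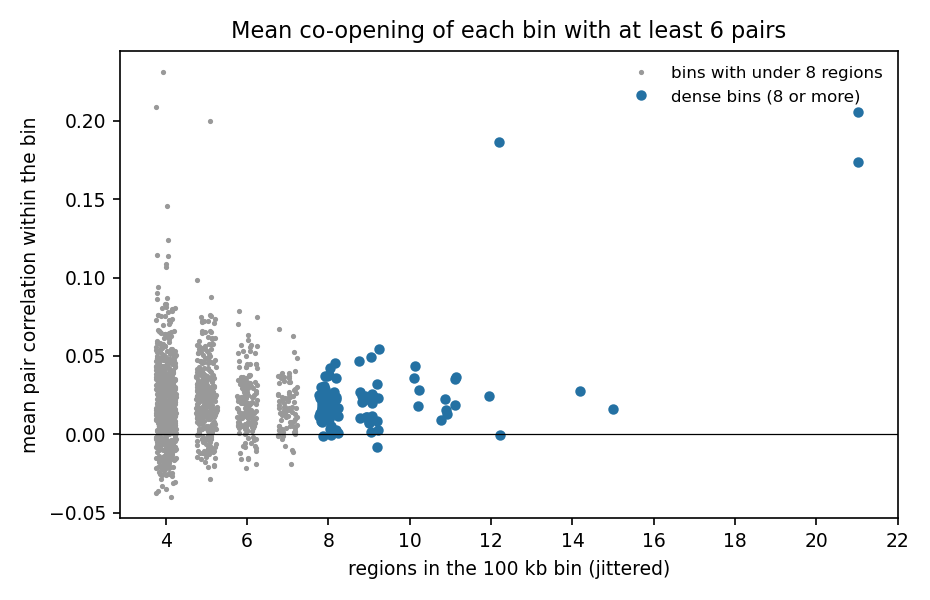
Each point is 1 autosomal bin of 100 kb with at least 6 pairs of regions, with the number of regions in the bin on the horizontal axis (jittered) and the mean pair correlation over all cells on the vertical axis. Of the dense bins (blue), 3 lie between 0.174 and 0.206 and the other 90 at or under 0.0545, within the range of bins with fewer regions (grey).

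In the bin on chromosome 11, the number of open members varied more from cell to cell than independent opening gives. Its pairs had a mean correlation of 0.206, and 96.5% of them were above 0. The most correlated pair, from 3032033 to 3033716 and from 3042038 to 3043799, was open in 33.98% and 44.6% of the cells and jointly in 24.3%, where 18.4% were expected (correlation 0.413). No member was open in 52 cells, where independent opening at each cell's depth gives 23.03. At least 10 of the 19 members were open in 46 cells, against 20.7 expected. Most cells lay between these ends, with 3 members open in the median cell and all 19 in 2 cells. The variance over cells of the number of open members was 5.21 times that of independent opening.

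The bins on chromosome 8 also had more cells at both ends than expected, with 1 member open in the median cell of each. From 19900000 to 19999999, all pairs (100%) were above 0, with a mean of 0.174. The pair from 19921439 to 19921667 and from 19971367 to 19972100, about 50 kb apart, had the highest correlation of all member pairs with at least 5 expected cells, 0.468. These regions were open in 38 and 53 cells and jointly in 24, where 6.75 were expected. At least 10 of the 19 members were open in 21 cells, against 2.15 expected, and none in 29.2% of the cells, against 16.4%. From 19700000 to 19799999, all 55 pairs were above 0, with a mean of 0.187. At least 6 of its 11 members were open in 30 cells, against 6.60 expected. The variance ratios were 5.06 and 3.28.

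The other 7 of the 10 fullest bins had variance ratios from 1.01 on chromosome 3 to 1.40 on chromosome 13, below those of the 3 bins. On chromosome 2 from 74500000, at least 8 of 15 members were open in 1 cell, where 1.77 were expected, and at least 5 in 31 cells against 24.2. On chromosome 6 from 52100000, at least 6 of 12 members were open in 29 cells against 21.2, and on chromosome 13 from 23600000 at least 7 of 14 in 17 cells against 13.4. On chromosome 3 from 89000000 the count was 8 against 7.50. Over all 93 bins the median variance ratio was 1.16 (quartiles 1.09 and 1.24), the lowest 0.958 and the highest outside the 3 bins 1.497. The full bins on chromosomes 13, 6 (1.296) and 10 (1.25) thus lay above the upper quartile. At a given correlation, however, this ratio rises with the number of members, and most of the 93 bins held fewer members than these. The mean pair correlations of the bins on chromosomes 13, 6 and 10 were 0.0273, 0.0242 and 0.0223, where pairs elsewhere had 0.0214. A ratio below 1 was seen in 6 bins.

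**Figure D3:**
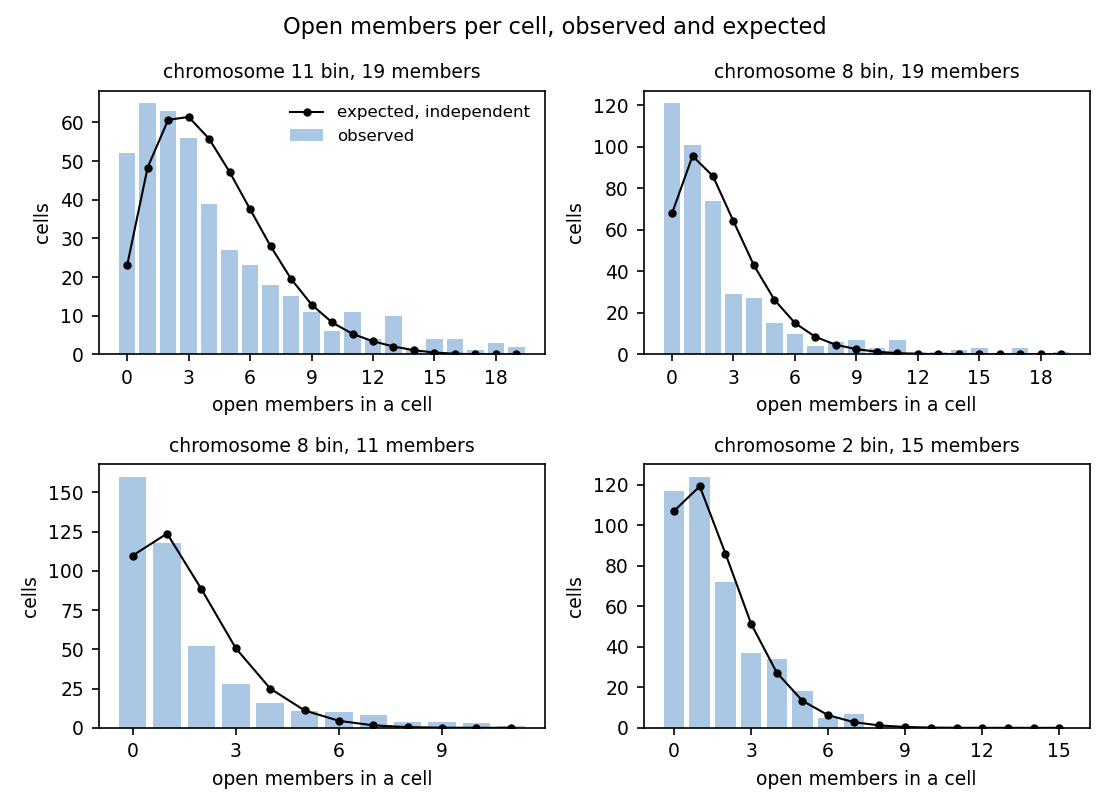
Number of cells (vertical axis) by the number of open members in the cell (horizontal axis) for 4 bins, observed (bars) and expected from independent opening at each cell's depth (black line). In the 3 bins of chromosomes 11 and 8 more cells than expected have none open (12.5%, 29.2% and 38.6% of the cells against 5.55%, 16.4% and 26.4%) and more have most members open, while the bin of 15 members on chromosome 2 follows its expected line more closely (28.2% with none open against 25.8%).

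The 3 bins also opened with each other across chromosomes. A score was computed for each bin and cell as the number of open members beyond expectation, divided by its expected SD. Between the chromosome 11 bin and the chromosome 8 bins at 19900000 and 19700000, the scores correlated at 0.769 and 0.725 over all cells, and those of the chromosome 8 bins with each other at 0.799. Among 3720 pairs of other dense bins on different chromosomes the highest correlation was 0.250 and the mean 0.00268. Pairs of 1 of the 3 bins with any other dense bin did not exceed 0.158. With both chromosome 8 bins pooled, the correlation with chromosome 11 was 0.790 (Spearman's rho 0.751), and 0.801 without the 2 cells farthest from the median.

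Member by member the link between the chromosomes was broad. Of the 49 members of the 3 bins, 47 correlated above 0.2 with the score of the other chromosome, at a median of 0.386 and at most 0.508. The exceptions were the region on chromosome 8 from 19703070 to 19703541, at 0.0736, and that on chromosome 11 from 3023666 to 3024204, at 0.0932. Each was the first member of its bin by position. On chromosome 8 this was not the edge of the co-opening. The regions before it, from 19694238 and from 19695666, correlated with the score over the 3 bins at 0.494 and 0.540. Among the regions of these bins that the rule leaves out, the wide ones moved with the members. Those on chromosome 8 from 19927918 to 19930628 and from 19940742 to 19943544 correlated with the score over the 3 bins at 0.501 and 0.541, and that on chromosome 11 from 3034371 to 3036926 at 0.454. The frequently open ones did not. The region on chromosome 11 from 3092801 to 3093810, open in 81.2% of the cells, stood at 0.0807, and that on chromosome 8 from 19784378 to 19785158, open in 63.6%, at -0.0912.

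In the median cell 5 of the 49 members were open (quartiles 3 and 10), where the median expected number was 7.402. The 2 cells with most open members lay far above this. In one, with 4979 open regions in all, 46 of the 49 members were open, 28 on chromosome 8 and 18 on chromosome 11, where 9.49 were expected. The other, with 10072 open regions, also had 46 open, where 20.1 were expected. In 19 cells none of the 49 was open. The number of open members over the 3 bins together varied 11.6 times as much as independent opening gives.

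**Figure D4:**
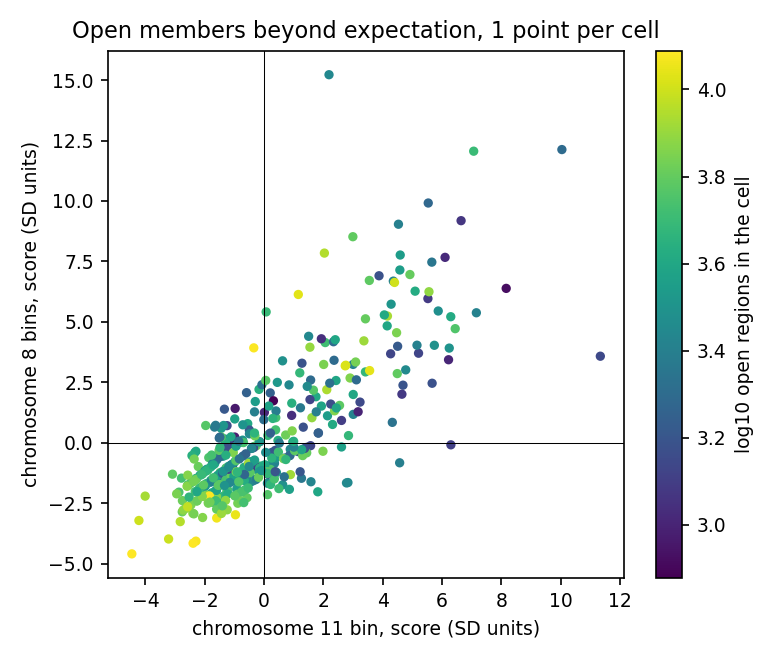
Score of the chromosome 11 bin (19 members, horizontal axis) against that of the chromosome 8 bins (30 members, vertical axis), in expected SDs, with 1 point for each cell, coloured by the log10 number of its open regions. The scores rise together (correlation 0.790), in shallow and in deep cells alike.

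Other measures of the cells moved with this score. Over all cells it correlated at 0.757 (rho 0.825) with the percentage of a cell's signal that falls in the 14 regions of highest signal (at least 2.5 fragments in the median cell that has them open), none of which is a member of the 3 bins, and at -0.277 (rho -0.364) with the log10 number of open regions. Taken 1 by 1, none of the 14 regions that lie outside the 3 bins correlated above 0.2 with the score. The correlation of the score with the title number of the cell was 0.151. Whether reads in the 3 bins fit several places of the genome, and what part any of these measures has in the result, was not tested. Between the chromosomes the correlation was 0.840 in cells at or above the median depth and 0.739 below it, so that it was present at either depth. Within 4 consecutive sets of title numbers it was 0.864, 0.811, 0.783 and 0.729.

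Among the 22627 autosomal regions outside the 3 bins, 89 correlated above 0.2 with their score, and 1 of these was among the 761 other members. The highest was on chromosome 1 from 87487712 to 87489787, at 0.546, a region of 2075 bp open in 21.4% of the cells. It was followed by chromosome 8 from 19695666 to 19696305 (0.540), just before the bin at 19700000, and chromosome 16 from 11144011 to 11144389 (0.516). Next were chromosome 8 from 20031077 to 20033266 (0.510) and chromosome 8 from 19694238 to 19695060 (0.494). Of the 9 sparser bins whose own pairs had a mean correlation above 0.1, the bins on chromosome 8 from 19600000 and on chromosome 5 from 15100000 followed the 3 bins, at 0.707 and 0.640. The other sparser bins lay between -0.0928 and 0.0384.

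Outside the 3 bins, the dense bins with the highest co-opening among those with 8 or more members lay on chromosomes 7 and 13. On chromosome 7 from 86600000 to 86699999, the 36 pairs of 9 members had a mean of 0.0545, and 29 were above 0. On chromosome 13 from 83800000 to 83899999 the mean was 0.0493, again with 29 of 36 above 0. This bin also held the most correlated pair outside the 3 bins. The regions from 83879002 to 83879634 and from 83881279 to 83881591 were open in 83 and 45 cells and jointly in 25, where 12.2 were expected (correlation 0.276). In the same bin, the region from 83871829 to 83872134, open in 41 cells, shared 17 cells with that from 83881279, where 6.21 were expected (0.240). On chromosome 15, the region from 101848345 to 101848835 shared 16 cells with each of those from 101844062 to 101844537 and from 101834686 to 101835047, where 7.36 and 8.17 were expected (0.251 and 0.250). These pairs were picked as the highest among many, so their values lean high.

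At the lower end, mean correlations within a bin were near 0. These bins were picked as the lowest among many, so their values lean low. On chromosome 5 from 121000000 to 121099999 the mean over 28 pairs was -0.00784, with 10 above 0. The bins on chromosome 3 from 89000000 to 89099999, with 66 pairs, and on chromosome 7 from 30000000 to 30099999, with 28, had means of -0.000594 and -0.000448. Those on chromosome 3 from 87700000 and on chromosome 8 from 87400000 had 0.000922 and 0.00150. In the first 3 of these, members were open together in 0.955, 0.978 and 0.954 times the expected number of cells. In those on chromosome 3 from 87700000 and on chromosome 8 from 87400000 it was 1.07 and 1.01 times. Neighbouring dense bins had score correlations from -0.00978 (chromosome 19 from 8800000 to 8999999) to 0.270 (chromosome 15 from 102800000 to 102999999), with a median of 0.0666 over the 11 neighbouring pairs.

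Groups of cells were compared to see which dense bins differ within the culture. Cells with at least 1000 fragments, all but 1, were divided into 3 clusters by accessibility, separately from autosomes with odd and with even numbers, and each bin was read in the clusters made without its own chromosome. Clusters 1, 2 and 3 of all autosomes held 48.8%, 26.1% and 25.1% of these cells, and 93.7% of cells had the same cluster on both sets. The share of open cells was divided by that expected from depth. A call of higher or lower in a cluster required a 2-fold difference of this ratio from the remaining cells and exact intervals that lie apart. This rule covers counting of cells and is no test over replicates.

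Fewer members than other regions were called different between the clusters, with no test of the difference. In cluster 1, 39 members (4.81%) were higher and 31 (3.83%) lower, where 5% and 7.06% of all autosomal regions were. In cluster 2, 25 (3.09%) were higher and 19 (2.35%) lower, against 7.03% and 4.29%. Cluster 3 had 46 (5.68%) higher and 62 (7.65%) lower members, against 9.29% and 11.5%. At least 1 of these calls was made for 19.4% of the members, where the background was 27.6%. Regions outside dense bins with the members' mix of shares of open cells had 27.9%. With every cell thinned to 1500 open regions these shares were 8.52% of members and 10.6% of autosomal regions, but members higher in cluster 1 (2.96% against 1.39%) and lower in cluster 2 (0.494% against 0.463%) then had the larger share. Of the 93 dense bins, 26 held no called member and 5 held 5 or more. Whether calls gather more in these bins than in sparser ones was not tested. Of the 39 members higher in cluster 1, 12 belonged to the 3 bins of chromosomes 8 and 11. The chromosome 11 bin held 8 of these and the chromosome 8 bin at 19900000 held 4, while that at 19700000 held none.

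Cluster 3 had the widest range over the 78 dense bins with 8 or more members, with ratios of open to expected members from 0.557 to 1.86. The ratios ran from 0.685 to 1.34 in cluster 1 and from 0.743 to 1.48 in cluster 2. Expected numbers were fitted to all cells together, which holds the ratios of a larger cluster nearer to 1. Cluster 1 held 48.8% of the cells, and clusters 2 and 3 held 26.1% and 25.1%. The bin on chromosome 15 from 101800000 to 101899999 reached 1.86 in cluster 3, and 0.685 and 0.762 in clusters 1 and 2. Of its 11 members, 5 were higher in cluster 3 and none lower. Its region from 101848345 to 101848835, also in the chromosome 15 pairs named above, had signal in 39 cells of cluster 3 (36.8%, 27.6% to 46.7%). Among the remaining cells it had signal in 11 (3.57%, 1.80% to 6.30%). The bin on chromosome 1 from 72200000 to 72299999 followed with 1.60 and 3 of 8 members higher. There the region from 72243362 to 72243823 had signal in 24.5% of the cluster (16.7% to 33.8%), compared with 2.27% outside it (0.919% to 4.63%). Next was chromosome 12 from 113900000 to 113999999, at 1.32.

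Cluster 2 was led by the bins that also had the highest co-opening outside the 3 bins. On chromosome 13 from 83800000 to 83899999 the ratio was 1.48, with 3 of 9 members higher, and 0.892 and 0.632 in clusters 1 and 3. Its region from 83871829 to 83872134 had signal in 31 of 91 cells of the cluster (34.1%, 24.5% to 44.7%), compared with 10 cells outside it (3.10%, 1.49% to 5.62%). On chromosome 7 from 86600000 to 86699999 the ratio was 1.42, with 4 of 9 members higher, and the region from 86663480 to 86664128 had signal in 32.97% against 4.02%. Next was chromosome 2 from 32400000 to 32499999, at 1.27. The scores of the bins on chromosomes 13 and 7 correlated at 0.186 over all cells.

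In cluster 1 the highest ratios were those of the 3 bins described above, at 1.34 on chromosome 11 and 1.29 and 1.27 on chromosome 8. In cluster 2 they had 0.743, 0.789 and 0.848, and in cluster 3 0.671, 0.730 and 0.694. The clusters used for chromosome 8 were made on odd autosomes, which hold the chromosome 11 bin. Those used for chromosome 11 were made on even autosomes, which hold the chromosome 8 bins. As the scores of these bins correlated at 0.790, this reading may not be independent of the bins themselves. In each bin the member with the highest depth-corrected ratio of the cluster to the remaining cells was taken. The region from 3084689 to 3085180 on chromosome 11 had signal in 28.1% of cluster 1 (22.2% to 34.6%), compared with 16.2% outside it (11.4% to 22.2%), a ratio of 2.28. On chromosome 8, the region from 19920317 to 19920542 had signal in 14.1% (9.71% to 19.5%), compared with 5.97% (3.12% to 10.2%), a ratio of 3.15. That from 19743980 to 19744950 had signal in 15.0% (10.5% to 20.5%), compared with 9.45% (5.79% to 14.4%), a ratio of 2.12. These intervals overlap, and no member of the bin at 19700000 was called higher in cluster 1. Taken in the same way, the leading regions of the bins named for cluster 2 had ratios from 3.01 to 7.20 and those for cluster 3 from 2.26 to 11.2. Cluster 1 was also the shallowest, with a median of 3378 open regions, against 4899 and 3797 in clusters 2 and 3, and the part of depth in these ratios beyond the correction was not tested. The high co-opening was present within every cluster, where the scores of chromosomes 8 and 11 correlated at 0.818, 0.799 and 0.675 with rates fitted in that cluster alone.

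**Figure D5:**
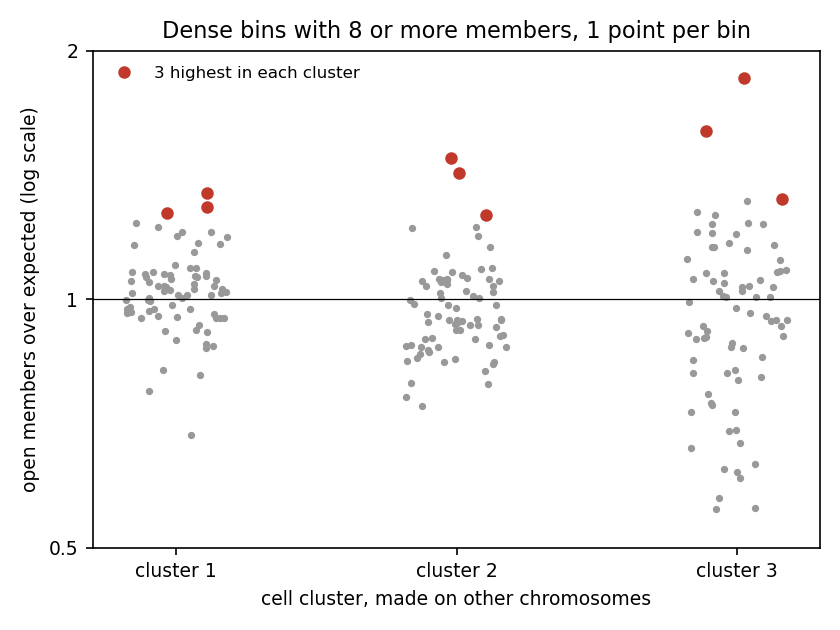
Open members over the number expected from depth (vertical axis, log scale) in 3 cell clusters made on other chromosomes (horizontal axis), with 1 point for each of 78 dense bins with 8 or more members. The 3 highest bins of each cluster are red; cluster 3 spans 0.557 to 1.86, more than clusters 1 and 2.

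Several bins were low in cluster 3. Ratios under 0.65, a limit chosen after the values were seen, were found in 7 bins. The lowest were on chromosome 2 from 93000000 to 93099999 (0.557), chromosome 8 from 123000000 to 123099999 (0.558) and chromosome 2 from 30500000 to 30599999 (0.575). The others lay on chromosome 11 from 96100000 (0.607), chromosome 15 from 102800000 (0.617), chromosome 2 from 151800000 (0.624) and chromosome 13 from 83800000. Between chromosomes, the highest score correlations outside the 3 bins involved these bins and those high in cluster 3. They were 0.250 for chromosome 11 from 96100000 with chromosome 2 from 30500000, and 0.233 both for chromosome 15 from 101800000 with chromosome 1 from 72200000 and for chromosome 8 from 123000000 with chromosome 2 from 30500000. At this number of cells, unrelated values scatter around 0 with an SD of about 0.0491. Over all 3720 pairs of other dense bins on different chromosomes the SD was 0.0584 and the lowest correlation -0.227. The named correlations were picked as the highest of these.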

How the data were processed

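The deposited table gives a whole-number signal for 23180 regions in 415 cells. The labels name no counting tool; 37.6% of the values above 0 equal 148 and 51.1% are whole multiples of 74, the pattern of aligned bases summed over read pairs, so signal was divided by 148 to give fragments. Per the submitters' processing notes, MACS2 and the build mm9 were used, without their roles. The aligner is not given in the sources used here, nor are duplicate treatment and the choice of regions. All had signal in at least 31 cells. A region was called open where its value was above 0. Open probability was fitted as 1 − exp(−region rate × cell rate) to all regions and cells, and residuals were divided by their expected SD and correlated over cells (Pearson). Pairs were averaged in 4 distance classes and 5 classes of expected overlap (limits 5, 10, 20 and 40 cells). Clusters came from term frequency-inverse document frequency values (scale 10000), components 2 to 10 of a singular value decomposition and k-means with 50 starts; 1 cell under 1000 fragments was left out. Python 3.11.15, numpy 2.4.6, scipy 1.17.1 and scikit-learn 1.9.0 were used, and the pair correlation was tested on simulated data. Bins named are the 10 fullest, the 5 highest and 5 lowest in mean correlation, and the 3 highest per cluster; the next highest bins and pairs outside the 3 bins were added after values were seen. The members, lists and alternatives were chosen with earlier results of these data known. Intervals are exact (Clopper-Pearson, 95%). Gene context and sequence content had been planned and were not run, since no annotation or genome on mm9 was used here.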

Additional observations from a re-analysis of the deposited data

How the results depend on the processing

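The difference in co-opening reversed to -0.00152 without the 3 bins, and to -0.00121 where sparser bins above 0.1 were left out of pairs elsewhere too. It was 0.0537 with at least 10 regions per bin and 0.0509 as a difference of observed over expected ratios (1.12 and 1.07). Other settings kept it above 0 and within its SD over chromosomes, from 0.00735 with at least 6 regions per bin to 0.0236 within cluster 3; leaving out 1 chromosome gave 0.00933 (without chromosome 8) to 0.0213 (without chromosome 2). Without the 3 bins, 13 such settings gave -0.00269 to 0.00104. The score correlation of chromosomes 8 and 11 was 0.645 where more than 1 fragment was required and 0.675 within cluster 3. Bins of at least 10 or 6 regions were 0.159% and 3.05% of bins, and held 0.944% and 10.4% of autosomal regions as members. The median share of open cells was 3.37% in members and 3.13% in others with more than 1 fragment, and 21.6% and 20.7% in deeper cells. Members higher and lower after thinning to 1500 open regions, which left out 32 cells, numbered 24 and 12 in cluster 1, 10 and 4 in cluster 2, and 22 and 10 in cluster 3. In cluster 1, 2.96% of members were then higher, against 1.39% of autosomal regions. With 2 clusters, the part holding most of clusters 1 and 2 had 62 higher and 48 lower, and with 4 clusters, that nearest to cluster 1 had 3 lower. No paired analysis was possible because all cells form 1 group. Depth limits what single pairs show, since few cells are expected open at both regions.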
